A study of Ovis aries with 9 samples.

Results

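Cultured granulosa cells (GCs) of thin-tailed Han sheep were compared at 8.4 mM glucose (LOW) and at 33.6 mM glucose (HIGH), with 3 samples in each group, which are 6 of the 9 samples of the series. The cells were taken from small follicles of young ewes' abattoir ovaries and pooled over many ovaries, so the samples are not animals. Whether the samples of a group came from separate cell pools or days is not stated, and the p-values measure only the spread between these samples, which may be technical. Both groups grew in medium with serum and antibiotics, were then kept for 8 h without glucose and serum, and received their glucose for 24 h. The study treats 33.6 mM as above what follicles hold, and 8.4 mM also lies above the normal follicle range that it gives. The members described are the genes that the deposited gene table names with a symbol. There were 14148 such genes among 39157 listed, and 10820 of them passed the filter on low values. Levels are given as scaled FPKM, the fragments per kilobase of transcript and per 1e6 fragments deposited by the authors, after the samples were brought to a common median.

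Granulosa cells surround the oocyte, take up glucose for it and for themselves, and make steroid hormones and inhibins under the control of follicle-stimulating hormone. Glucose that enters a cell is phosphorylated by hexokinases and used in glycolysis, in the pentose phosphate pathway or in the hexosamine and polyol branches. A rise of glucose 6-phosphate is known to be read by the transcription factor pair MondoA (the product of MLXIP) and MLX, whose best known targets are TXNIP and ARRDC4, both brakes on glucose uptake. Energy supply is read by AMPK and mTORC1, which set the rates of ribosome production, protein synthesis and autophagy.

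One sample has to be described before any result. HIGH replicate 3 was closer to the LOW samples than to the other HIGH samples. Across the 10820 genes, its Spearman rho with each LOW sample ran from 0.989 to 0.991, and the LOW samples reached 0.991 among themselves. HIGH replicate 1 had a rho of 0.959 to 0.968 with the LOW samples and HIGH replicate 2 of 0.978 to 0.984, whereas these replicates reached 0.988 with each other. In HIGH replicate 1, 567 genes lay more than 1 on the log2 scale above the LOW mean and 240 lay as far below it. These numbers were 181 and 84 in HIGH replicate 2, but 95 and 112 in HIGH replicate 3. For 47.4% of the genes, the level in HIGH replicate 3 lay within the range of the LOW samples, against 21.4% in HIGH replicate 1 and 30.3% in HIGH replicate 2. The counts over all genes and over the gene lists described singly are therefore given with all 6 samples and again without HIGH replicate 3, and values of single genes without it are given for some of them. The values without it rest on 2 HIGH samples, and since the sample was singled out for its likeness to LOW, they are descriptions of the other HIGH samples and no independent evidence of a glucose effect.

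**Figure D1:**
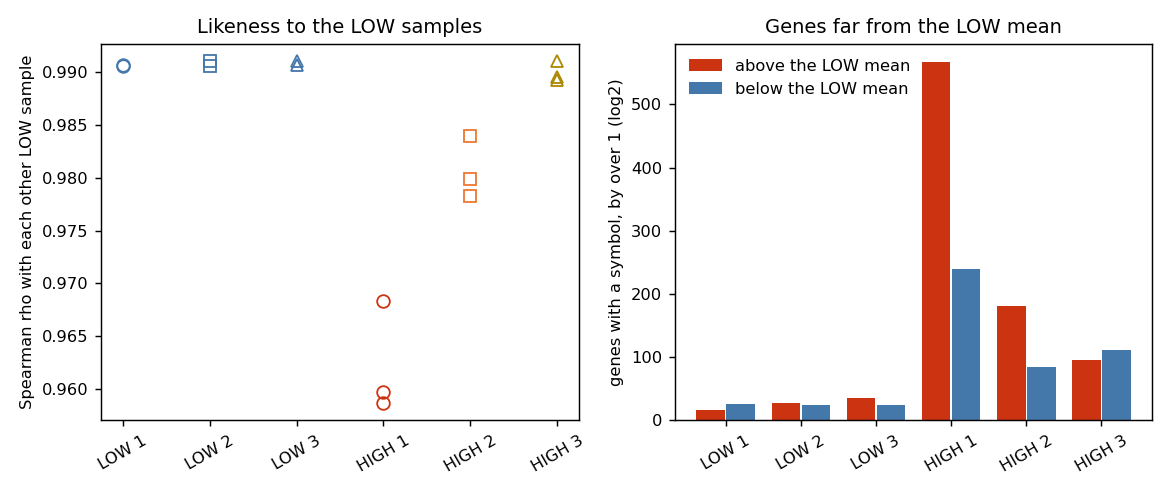
Left, Spearman rho of each sample (x axis) with each other LOW sample over the 10820 genes with a symbol, one open symbol per pair; right, the number of genes with a symbol that lay more than 1 on the log2 scale above (red bars) or below (blue bars) the mean of the LOW samples, which for a LOW sample includes itself. HIGH replicate 3 sits at 0.989 to 0.991 with the LOW samples, and the bars of HIGH replicate 1 (567 and 240 genes) are the tallest.

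Other library values moved with the same samples. The share of all FPKM held by small structured RNAs of the Rfam families was 67.0% to 72.1% in LOW, 30.2% and 50.7% in HIGH replicates 1 and 2, and 68.2% in HIGH replicate 3. Genes assembled by the authors outside the annotation held 4.41% to 6.17% in LOW, 42.4% and 19.6% in HIGH replicates 1 and 2, and 7.03% in HIGH replicate 3 (exact permutation test, two-sided, p = 0.10, which is the smallest p that 3 against 3 samples allow). Of 8993 assembled genes tested, 887 were higher in HIGH at an unadjusted p under 0.05 (9.86%) and 226 lower (2.51%). The part of these differences in the results for named genes was not tested.

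The labelled cell type was checked against marker genes. Of 8 granulosa markers listed, SERPINE2 was the highest at 40.2 to 66.2 FPKM. FSHR, the receptor of follicle-stimulating hormone, stood at 0.224 to 0.513 FPKM in the 6 samples. INHA, the inhibin alpha subunit, stood at 8.31 to 14.3 FPKM, FST (follistatin) at 7.73 to 10.1 FPKM and NR5A2 at 14.1 to 18.1 FPKM. The markers FOXL2, AMH and CYP19A1 were not analysed here. Markers of stromal and smooth muscle cells covered a wide range, from LUM (lumican) at 1760 to 2129 FPKM and TAGLN (transgelin) at 898 to 2087 FPKM, through MYH11 at 3.41 to 10.98 FPKM and THY1 at 1.43 to 4.57 FPKM, to TCF21 at 0 to 1.18 FPKM and RGS5 at 0 to 0.228 FPKM. The 9 stromal markers summed to 2848 to 2960 FPKM in LOW and 2980 to 3092 FPKM in HIGH, and the 7 smooth muscle markers to 2867 to 3186 FPKM in LOW and 1746 to 3228 FPKM in HIGH. The 7 endothelial markers summed to 1.19 to 1.44 FPKM and the 10 immune markers to 15.4 to 20.3 FPKM, most of it from CD68 and CD14. Among the endothelial markers CDH5 and EMCN were listed at 0 in all samples, TEK stood at 0.544 to 0.801 FPKM and TIE1 at 0.384 to 0.699 FPKM. The 6 oocyte markers summed to 7.16 to 8.67 FPKM, of which KIT, a receptor that other cells also carry, held 6.38 to 7.51 FPKM. GDF9 stood at 0.518 to 0.861 FPKM, BMP15 was listed at 0 and NLRP5 reached 0.0119 FPKM. The 6 epithelial markers summed to 14.0 to 17.3 FPKM in LOW and 8.43 to 12.8 FPKM in HIGH, most of it from KRT8. Fewer cells of a type and less RNA per cell cannot be told apart in such bulk samples, and the part of other cell types in the results was not tested.

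The most abundant genes with a symbol gave the general character of the cells, and none of them passed the test. TIMP1, an inhibitor of matrix proteases, stood first, with 4539, 5016 and 4465 FPKM in LOW and 3148, 4058 and 4674 FPKM in HIGH. The mitochondrial gene COX1 followed with 3162 to 3281 FPKM in LOW and 2768 to 3203 FPKM in HIGH, and after it SPARC and LUM, both proteins of the matrix. VIM (vimentin), the main intermediate filament of mesenchymal cells, was lower in HIGH without overlap, with 2137, 2408 and 2341 FPKM in LOW and 1360, 1698 and 2118 FPKM in HIGH. RPS18, a protein of the small ribosomal subunit, and TAGLN were low in HIGH replicates 1 and 2 and within or just above the LOW range in HIGH replicate 3. ACTB (beta-actin) stood at 1363 to 1735 FPKM in LOW and 1633 to 1868 FPKM in HIGH. CFAP46, a gene of motile cilia, was also among the 10 highest at 968 to 1942 FPKM, but 99.9% of that level came from 2 assembled transcripts of 740 bases within it (chromosome 22, 50457721 to 50458460), so this value says little of the gene itself.

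The question of the comparison is which genes respond when glucose is raised from 8.4 mM to 33.6 mM. A gene was called when its adjusted p was under 0.05 and its log2 fold change lay above 1 or below -1. With all 6 samples, limma called 0 of the 10820 genes with a symbol (0%), and 6 of all 23002 genes tested (0.0261%), 1 higher (0.00435%) and 5 lower (0.0217%) in HIGH. The lowest adjusted p among genes with a symbol was 0.139. At an unadjusted p under 0.05, 915 genes were higher in HIGH (8.46% of those tested) and 645 were lower (5.96%). The groups did not overlap for 1172 genes higher in HIGH (10.8%) and for 1213 lower genes (11.2%). The median log2 fold change over all genes with a symbol was -0.03, close to 0. The size of the differences was not even: 122 genes had a log2 fold change above 1 and 37 one below -1, and 93 and 27 of them had groups without overlap. Without HIGH replicate 3, 922 genes were higher (8.52%) and 910 lower (8.41%) at an adjusted p under 0.05, and 223 (2.06%) and 34 (0.314%) of them also had a log2 fold change past 1. The number of calls thus depended on this single sample. Gene list counts below stand beside 8.46% higher and 5.96% lower, or 8.52% and 8.41% without this sample. Leaving out any of the other samples gave at most 2 calls among genes with a symbol.

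The genes with the firmest differences are described first for those higher in HIGH. There were 69 genes with a log2 fold change above 1, groups without overlap and a group mean of at least 1 FPKM, and the 12 with the smallest p are given here. Their unadjusted p ran from 4.23e-05 to 0.00184 and their limma adjusted p from 0.139 to 0.357, and without HIGH replicate 3 their adjusted p was 0.0199 to 0.0312.

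LTBP2 (ENSOARG00000001170, chromosome 7, 82705072 to 82812634), a matrix protein bound to elastic fibres and related to the binding proteins of latent TGF beta, had the smallest p. It stood at 5.90, 6.85 and 6.30 FPKM in LOW and at 14.9, 12.1 and 12.7 FPKM in HIGH. The 3 HIGH samples lay close together here, HIGH replicate 3 included, and far above LOW. The log2 fold change was 1.04 (SE 0.12, 95% interval 0.75 to 1.33) with all samples and 1.07 without HIGH replicate 3. AEBP1, another matrix protein that binds collagen, stood at 26.5, 26.7 and 22.1 FPKM in LOW and at 88.9, 62.9 and 39.2 FPKM in HIGH. LAMA5, the laminin alpha 5 chain of basement membranes, stood at 4.62, 5.53 and 4.49 FPKM in LOW and at 14.0, 10.9 and 7.49 FPKM in HIGH. In both, HIGH replicate 1 was highest and HIGH replicate 3 nearest to LOW, within the condition of no overlap by which the genes were chosen.

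NFIX, a transcription factor of the nuclear factor I family, was low in LOW at 0.749, 0.701 and 0.628 FPKM and reached 2.73, 1.89 and 1.71 FPKM in HIGH, a log2 fold change of 1.46 (SE 0.22). Other genes of this group also work in the nucleus. CIC, a transcriptional repressor, had 2.15 to 2.42 FPKM in LOW and 7.26, 4.57 and 3.83 FPKM in HIGH. EP400, a subunit of a chromatin remodelling complex, had 1.77 to 2.38 FPKM in LOW and 6.54, 4.88 and 3.33 FPKM in HIGH, of which 9.49% came from antisense or overlapping transcripts filed under the gene. BCL9L, a coactivator of beta-catenin, had 1.28 to 1.41 FPKM in LOW and 5.19, 3.77 and 2.34 FPKM in HIGH. ZNF592, a zinc finger protein, had 1.61 to 2.08 FPKM in LOW and 2.97 to 5.17 FPKM in HIGH.

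ULK1, the kinase that starts autophagy and is controlled by AMPK and mTORC1, stood at 3.82, 4.18 and 3.28 FPKM in LOW and at 11.5, 9.22 and 6.37 FPKM in HIGH. Its log2 fold change was 1.21 (SE 0.22, unadjusted p = 0.000665, limma adjusted p = 0.357). MAP1A, a protein that binds microtubules, stood at 7.41, 7.11 and 6.23 FPKM in LOW and at 23.3, 16.7 and 11.6 FPKM in HIGH. HSPB6, a small heat shock protein, stood at 2.48, 3.62 and 3.25 FPKM in LOW and at 14.5, 8.99 and 6.01 FPKM in HIGH, with the highest log2 fold change of the 12, 1.55 (SE 0.31). ABCA3, a lipid transporter, stood at 0.810, 1.22 and 0.842 FPKM in LOW and at 2.19, 2.08 and 1.94 FPKM in HIGH. As for LTBP2, its HIGH samples lay close together.

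Only 11 genes met the same conditions in the other direction. STMN2, a stathmin that destabilises microtubules, came first at 2.83, 2.91 and 2.89 FPKM in LOW and 1.16, 1.27 and 1.49 FPKM in HIGH. The groups were tight, the log2 fold change was -1.09 (SE 0.15) and the unadjusted p was 0.000138 (limma adjusted p = 0.237). ANKRD39 stood at 2.90, 2.62 and 2.93 FPKM in LOW and at 1.04, 0.916 and 1.68 FPKM in HIGH. MGP, the matrix Gla protein that inhibits calcification, stood at 2.44, 3.14 and 3.38 FPKM in LOW and at 1.88, 1.34 and 1.13 FPKM in HIGH. In MGP it was HIGH replicate 3 that lay furthest from LOW. PHF5A and SNRPF, components of the spliceosome, were also lower. PHF5A had 4.40 to 4.50 FPKM in LOW and 2.87, 1.44 and 2.34 FPKM in HIGH, and SNRPF had 5.05 to 7.34 FPKM in LOW and 2.97, 1.33 and 3.41 FPKM in HIGH. S100A1, a calcium-binding protein, had 1.23 to 2.11 FPKM in LOW and 0.357, 0.953 and 0.585 FPKM in HIGH.

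In each of the other lower genes 1 sample stood away from its group. TMEM30A, a partner of lipid flippases, was at 49.4, 49.1 and 49.0 FPKM in LOW and at 37.7, 8.49 and 7.08 FPKM in HIGH. Here HIGH replicate 1 stood near LOW and HIGH replicates 2 and 3 stood far below it. Without HIGH replicate 1 its log2 fold change was -2.65 with a limma adjusted p of 0.000594, the 1 call among genes with a symbol in that fit. MYH7, a myosin heavy chain, had 7.27 FPKM in LOW replicate 3 against 0.924 and 1.01 FPKM in the other LOW samples, and its log2 fold change of -1.71 was -0.78 without that replicate. SLC30A1, a zinc exporter, had 0.345 FPKM in HIGH replicate 2 against up to 6.27 FPKM in the other HIGH samples and at least 7.42 FPKM in LOW, and its unadjusted p was 0.108. RNF181 had 33.7 FPKM in LOW replicate 1, 17.3 and 17.7 FPKM in the other LOW samples and 6.12 to 13.3 FPKM in HIGH. HNRNPA1 had 18.7 FPKM in LOW replicate 1, 9.43 and 9.46 FPKM in the other LOW samples and 3.13 to 7.15 FPKM in HIGH. In SLC30A1, RNF181 and HNRNPA1 the groups stayed apart without the sample that stood away, as groups chosen for no overlap must. HNRNPA1 has many near-identical processed copies in mammalian genomes, so its level is uncertain.

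**Figure D2:**
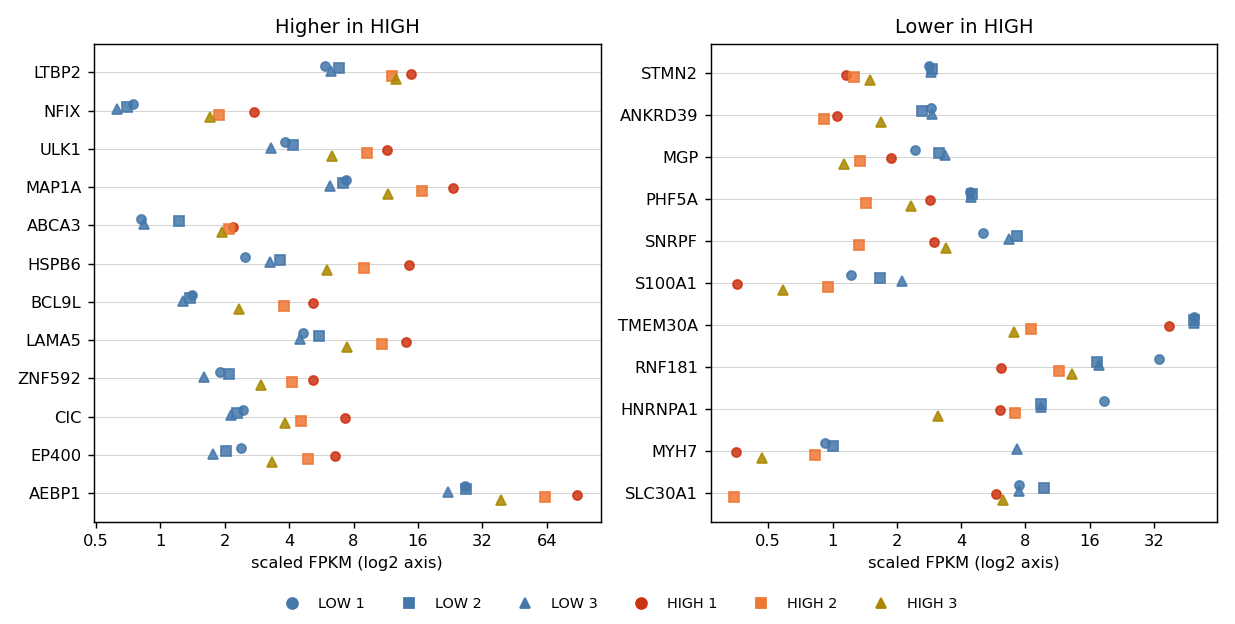
Scaled FPKM (log2 axis) of the 12 genes higher in HIGH with the smallest p (left) and of the 11 lower genes (right), one point per sample, LOW in blue and HIGH in red, orange and ochre. Genes of both panels were chosen for groups without overlap. In the left panel HIGH replicate 3 is often nearest to LOW. In the right panel single samples such as HIGH replicate 1 for TMEM30A (37.7) and LOW replicate 3 for MYH7 (7.27) stand away from their group.

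TXNIP, the best known target of MondoA, was at 210, 222 and 229 FPKM in LOW and at 175, 201 and 213 FPKM in HIGH. Its groups overlapped and its log2 fold change was -0.17 (95% interval -0.45 to 0.11, unadjusted p = 0.203). ARRDC4 was at 34.5, 29.4 and 29.8 FPKM in LOW and at 44.3, 36.6 and 28.4 FPKM in HIGH, with a log2 fold change of 0.20 (95% interval -0.19 to 0.59). MLXIP, which encodes MondoA itself, was at 9.08, 8.61 and 9.24 FPKM in LOW and at 30.2, 22.3 and 12.01 FPKM in HIGH. Its groups did not overlap, and its log2 fold change was 1.15 (SE 0.30, unadjusted p = 0.00522, limma adjusted p = 0.357). ARRDC3, a related arrestin, was at 15.1 to 25.8 FPKM in LOW and at 12.5 to 12.9 FPKM in HIGH. Over the list of glucose-induced genes, 1 of 10 tested was higher and 1 lower at an unadjusted p under 0.05, and the median log2 fold change was -0.13. Without HIGH replicate 3, 1 was higher and 1 lower at an adjusted p under 0.05 (8.52% and 8.41% of all genes with a symbol), and the median was -0.05.

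Among the glucose transporters, 0 of 10 tested were higher and 1 lower at an unadjusted p under 0.05, with a median of -0.01. SLC2A8, an intracellular transporter, was the lower one at 11.3 to 12.4 FPKM in LOW and 8.43, 9.17 and 10.8 FPKM in HIGH. Of these transporters, 0 were higher and 1 lower at an adjusted p under 0.05 without HIGH replicate 3, and the median was then -0.13.

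The glycolysis list held 6 genes higher and 1 lower of 23 tested at that threshold (8.46% and 5.96% of all genes with a symbol), with a median of 0.07. In 8 members HIGH was higher without overlap and in 1 lower (10.8% and 11.2% of all genes with a symbol). The 6 were hexokinases and enzymes around phosphofructokinase, the steps at which glycolysis is committed and regulated. HK1 stood at 9.09, 7.98 and 8.12 FPKM in LOW and at 21.9, 16.2 and 10.5 FPKM in HIGH, a log2 fold change of 0.88 (SE 0.24). HK2 stood at 2.44, 1.83 and 2.02 FPKM in LOW and at 9.22, 4.41 and 2.60 FPKM in HIGH, a log2 fold change of 1.15 (SE 0.40). PFKFB3, which makes the activator fructose 2,6-bisphosphate, stood at 6.95 to 8.62 FPKM in LOW and 9.82 to 12.6 FPKM in HIGH, and PFKFB2 at 2.89 to 3.38 and 3.66 to 4.54 FPKM. PFKL and PFKM, subunits of phosphofructokinase, were higher by 0.81 and 0.44 on the log2 scale. All 6 had groups without overlap, none passed the adjusted threshold with 6 samples, and all 6 passed an adjusted p of 0.05 without HIGH replicate 3 (0.0205 to 0.0455), as did 0 lower genes of the list. That replicate was singled out for its likeness to LOW, and without it the median of the list was again 0.07. PDK1 was the lower gene at 12.4 to 14.0 FPKM in LOW and 10.7 to 11.9 FPKM in HIGH.

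In the pentose phosphate, polyol and hexosamine pathways, 2 of 13 were higher and 1 lower (8.46% and 5.96% of all genes with a symbol). The list median was 0.03. TALDO1 (transaldolase) stood at 61.1, 66.2 and 66.6 FPKM in LOW and at 103, 122 and 72.9 FPKM in HIGH. PGD, the second dehydrogenase of the pentose phosphate pathway, stood at 26.0 to 31.3 FPKM in LOW and 30.3 to 55.7 FPKM in HIGH, with HIGH replicate 3 inside the LOW range. KHK, which phosphorylates fructose, was lower at 1.94 to 2.16 FPKM in LOW and 1.20 to 1.62 FPKM in HIGH. Of the enzymes listed, 4 were higher and 0 lower at an adjusted p under 0.05 without HIGH replicate 3, and the median was then 0.05.

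In the TCA cycle and fatty acid oxidation, 3 of 21 genes were higher, ETFDH and IDH3B among them, and 1 lower (SDHB). The median was -0.05. Of all genes with a symbol, 8.46% were higher and 5.96% lower. Of the 21 genes, 3 were higher and 3 lower at an adjusted p under 0.05 without HIGH replicate 3, and the median was then -0.10. The respiratory chain list names 53 nuclear-encoded subunits, of which only 29 were listed under their symbol and tested. None of the 29 had an unadjusted p under 0.05 in either direction. Only 5 of them had a log2 fold change above 0 (5000 of all 10820 genes with a symbol), and their median was -0.30. COX8A, a subunit of cytochrome c oxidase, came nearest at 157, 181 and 179 FPKM in LOW and 109, 128 and 167 FPKM in HIGH (unadjusted p = 0.0576). By sample, the median difference of the list from the LOW mean was -0.65 and -0.35 in HIGH replicates 1 and 2 and 0.08 in HIGH replicate 3. Without HIGH replicate 3, 15 of the 29 were lower and 0 higher at an adjusted p under 0.05, and the median was -0.51.

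The list with the lowest median was that of cytosolic ribosomal proteins, at -0.41 against -0.03 for all genes with a symbol. Of its 75 members, only 27 were listed under their symbol, and 26 of these were tested. All 26 had a log2 fold change below 0, but only 3 were lower at an unadjusted p under 0.05 (5.96% of all genes with a symbol). RPL32 stood at 1021, 1129 and 1143 FPKM in LOW and at 594, 772 and 993 FPKM in HIGH. RPL11 had 117 to 147 FPKM in LOW and 65.2, 86.2 and 124 FPKM in HIGH, and RPS12 had 647 to 730 FPKM in LOW and 315, 436 and 677 FPKM in HIGH. The 27 ribosomal proteins listed held 8.26% to 8.92% of the FPKM of genes with a symbol in LOW, 5.50% and 6.87% in HIGH replicates 1 and 2, and 8.69% in HIGH replicate 3 (exact permutation test, two-sided, p = 0.20, smallest possible 0.10). Without HIGH replicate 3, 14 of the 26 were lower and 0 higher at an adjusted p under 0.05 and the median was -0.64. Ribosomal protein genes have many processed copies that share reads with them, so single members are uncertain.

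The proteasome list went both ways, with 4 of 32 genes higher and 5 lower (8.46% and 5.96% of all genes with a symbol). Its median was -0.21. PSMD2, a large subunit of the regulatory particle, stood at 17.0 to 23.3 FPKM in LOW and 49.0, 34.1 and 22.8 FPKM in HIGH. PSMD14, the deubiquitinase of the same particle, stood at 17.1, 21.8 and 22.6 FPKM in LOW and at 12.9, 13.7 and 16.8 FPKM in HIGH. Of the proteasome genes, 7 were higher and 13 lower at an adjusted p under 0.05 without HIGH replicate 3, and the median was then -0.34. Among antioxidant and glutathione genes, 0 of 27 were higher and 3 lower, beside the same shares of all genes with a symbol. Their median was -0.19. GSTA1, a glutathione transferase, had 3.98 to 4.72 FPKM in LOW and at most 3.11 FPKM in HIGH, and the cystine transporter SLC7A11 had 3.47 to 3.97 and 2.69 to 3.28 FPKM. SOD1, the cytosolic superoxide dismutase, had 61.3 to 66.8 FPKM in LOW and 35.0, 46.2 and 62.1 FPKM in HIGH. 1 of the antioxidant genes was higher and 7 lower at an adjusted p under 0.05 without HIGH replicate 3, and the median was -0.32.

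Genes of the extracellular matrix lay on the higher side. Of 48 tested, 11 were higher and 0 lower at an unadjusted p under 0.05 (8.46% and 5.96% of all genes with a symbol), 13 were higher and 1 lower without overlap (10.8% and 11.2%), and the median was 0.20. Of the matrix genes, 15 were higher and 1 lower at an adjusted p under 0.05 without HIGH replicate 3, and the median was then 0.32. COL1A1, the main chain of type I collagen, stood at 27.4, 23.0 and 24.0 FPKM in LOW and at 123, 71.5 and 38.2 FPKM in HIGH. All HIGH samples exceeded all LOW samples, but the HIGH samples differed among themselves by more than 3 times. The log2 fold change was 1.49 (SE 0.37, 95% interval 0.63 to 2.35, unadjusted p = 0.00417, limma adjusted p = 0.357) and 1.92 without HIGH replicate 3 (adjusted p = 0.02004). Its partner chain COL1A2 stood at 144, 137 and 124 FPKM in LOW and at 314, 229 and 178 FPKM in HIGH.

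Basement membrane genes were among them. HSPG2 (perlecan) stood at 27.9, 28.8 and 23.3 FPKM in LOW and at 110, 73.3 and 43.5 FPKM in HIGH, a log2 fold change of 1.41 (SE 0.30). COL4A1 stood at 65.2 to 77.8 FPKM in LOW and at 189, 126 and 91.4 FPKM in HIGH, while its neighbour COL4A2 stood at 58.2 to 72.5 FPKM and at 77.0 to 87.9 FPKM. LAMB2, a laminin beta chain, had 13.7 to 16.3 FPKM in LOW and 18.9 to 33.7 FPKM in HIGH. The fibrillar collagen COL5A1 was higher by 0.88 (SE 0.18) and COL3A1 by 0.34 (SE 0.14) on the log2 scale. THBS1, thrombospondin 1, was the most abundant of the 11 at 1357, 1152 and 1112 FPKM in LOW and 2328, 1934 and 1408 FPKM in HIGH, and TNC (tenascin C) completed them at 3.64 to 4.45 and 5.43 to 7.04 FPKM. TGFB1, the growth factor that drives collagen expression in many cells, stood at 5.65, 6.91 and 4.83 FPKM in LOW and at 17.0, 12.7 and 7.97 FPKM in HIGH. It belongs to the TGF beta and BMP list, where 1 of 30 tested was higher and 2 lower at an unadjusted p under 0.05. The median of that list was -0.03. Without HIGH replicate 3, 1 was higher and 2 lower at an adjusted p under 0.05, and the median was -0.02. The abundant matrix genes SPARC and LUM did not follow the higher matrix genes, with log2 fold changes of -0.09 and -0.06.

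Histones and chromatin regulators formed the next group. Of 27 tested, 9 were higher and 0 lower at an unadjusted p under 0.05 (8.46% and 5.96% of all genes with a symbol), 10 were higher and 2 lower without overlap (10.8% and 11.2%), and the median was 0.30. Of the 27, 13 were higher and 0 lower at an adjusted p under 0.05 without HIGH replicate 3, and the median was then 0.45. The 9 included KMT2D, KMT2B and KMT2C, which methylate histone H3, the remodelling subunits ARID1A, SMARCA4 and SMARCA2, the acetyltransferase CREBBP and the DNA demethylase TET3. KMT2D stood at 1.79, 1.497 and 1.51 FPKM in LOW and at 6.19, 4.10 and 2.35 FPKM in HIGH. CREBBP stood at 4.87 to 5.88 FPKM in LOW and at 12.7, 9.97 and 6.50 FPKM in HIGH. In each of the 9, HIGH replicate 3 was the lowest HIGH sample.

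A list of other genes with very long transcripts, from the nucleus and the cytoskeleton, had the highest median, 0.50. Of 21 tested, 11 were higher and 0 lower (8.46% and 5.96% of all genes with a symbol). DYNC1H1, the dynein heavy chain, stood at 13.7, 12.8 and 11.4 FPKM in LOW and at 52.4, 32.7 and 18.1 FPKM in HIGH. LRP1, a large endocytic receptor, stood at 32.1, 30.5 and 26.0 FPKM in LOW and at 114, 79.1 and 44.1 FPKM in HIGH. The summed level of the list was 303 to 365 FPKM in LOW and 622, 491 and 354 FPKM in HIGH, so that HIGH replicate 3 lay within the LOW range. Of the 21, 12 were higher and 0 lower at an adjusted p under 0.05 without HIGH replicate 3, and the median was then 0.70.

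Fold change moved with gene size and level over all genes. The median log2 fold change was -0.14 for 423 genes spanning under 2000 bases, -0.15 for 871 genes of 2000 to 5000 bases, -0.05 for 1967 genes of 10000 to 20000 bases and 0.07 for 1733 genes over 100000 bases. In the shortest class 2.84% of genes were higher at an unadjusted p under 0.05 and 10.2% lower, and in the longest class 12.6% were higher and 2.94% lower. By mean level, the median was 0.06 below 1 FPKM and -0.23 for 303 genes above 100 FPKM. The 915 higher genes had a median span of 36151 bases and the 645 lower genes one of 17696 bases, against 26201 bases for all. The part of gene size and level in the results for the gene lists was not tested.

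**Figure D3:**
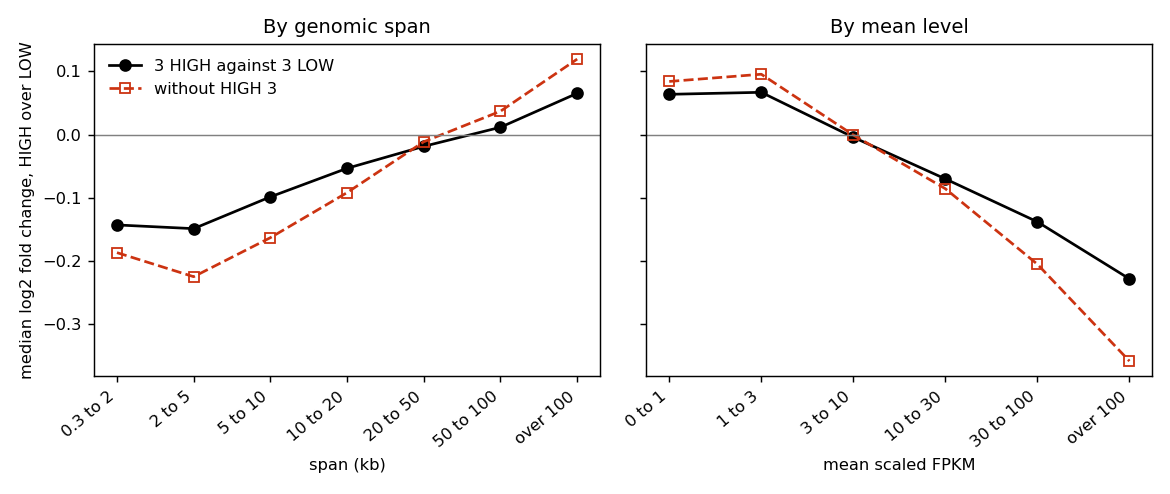
Median log2 fold change of HIGH over LOW over the genes with a symbol in classes of genomic span (left, kilobases) and of mean scaled FPKM (right), with all 6 samples (black circles) and without HIGH replicate 3 (red squares). With all samples the median runs from -0.14 in the shortest to 0.07 in the longest genes and down to -0.23 in the most abundant ones.

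Energy and growth factor sensing followed. In the AMPK and mTORC1 list, 6 of 23 were higher and 1 lower (8.46% and 5.96% of all genes with a symbol). The list median was 0.25. Beside ULK1, STK11 (the kinase that activates AMPK) stood at 5.69, 6.31 and 6.27 FPKM in LOW and at 8.18, 8.18 and 7.89 FPKM in HIGH. Its HIGH samples agreed closely, and its log2 fold change was 0.40 (SE 0.10, unadjusted p = 0.00543). MTOR stood at 8.04 to 9.40 FPKM in LOW and 10.2 to 16.6 FPKM in HIGH, and the inhibitors of mTORC1, TSC2 and AKT1S1, were higher by 0.73 and 0.45 on the log2 scale, as was TSC1, the partner of TSC2, by 0.44. SESN1, which restrains mTORC1, was the lower one at 3.41 to 3.81 and 2.78 to 3.11 FPKM. Of the AMPK and mTORC1 genes, 8 were higher and 2 lower at an adjusted p under 0.05 without HIGH replicate 3, and the median was then 0.42.

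In the IGF system 5 of 14 genes were higher and 0 lower (8.46% and 5.96% of all genes with a symbol). The list median was 0.33. STC2 (stanniocalcin 2) had 0.796 to 1.10 FPKM in LOW and 1.65 to 1.89 FPKM in HIGH. PAPPA, the protease whose action STC2 blocks, had 5.37 to 6.34 and 6.48 to 10.9 FPKM, with 39.1% of its level in antisense or overlapping transcripts. The receptors IGF1R, INSR and IGF2R were higher by 0.89, 0.48 and 1.15. For IGF1R and INSR the groups overlapped through HIGH replicate 3, at 15.6 and 18.8 FPKM against LOW maxima of 16.3 and 18.9 FPKM. Of the IGF system, 7 were higher and 2 lower at an adjusted p under 0.05 without HIGH replicate 3, and the median was then 0.42.

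Apoptosis genes were a stated interest of the study. BAX, which opens the mitochondrial membrane, stood at 6.72 to 10.2 FPKM in LOW and 8.77 to 10.0 FPKM in HIGH, with a log2 fold change of 0.25 and a 95% interval of -0.14 to 0.64. BCL2, its inhibitor, stood at 0.817 to 0.958 FPKM in LOW and 0.685 to 0.836 FPKM in HIGH, with a log2 fold change of -0.13 and a 95% interval of -0.59 to 0.33. Antisense or overlapping transcripts held 31.4% of the BAX level and 24.9% of the BCL2 level. BCL2L1, another inhibitor, was higher without overlap at 24.4 to 25.7 and 27.6 to 33.1 FPKM.

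The BCL2 family list held 3 genes higher and 0 lower of 12 (8.46% and 5.96% of all genes with a symbol). Its median was 0.07. Without HIGH replicate 3 the list held 4 higher and 0 lower at an adjusted p under 0.05 (8.52% and 8.41%). Its median was then 0.14. The other 2 higher genes were BCL9L and BCL9, which share the name but act in beta-catenin signaling and not in cell death. BCL9 stood at 8.70, 8.27 and 7.12 FPKM in LOW and at 19.1, 14.8 and 10.6 FPKM in HIGH (log2 fold change 0.84, SE 0.21). Among caspases and death receptors, 2 of 23 were higher and 1 lower, beside 8.46% and 5.96% of all genes with a symbol. Their median was -0.09. Of the 23, 2 were higher and 1 lower at an adjusted p under 0.05 without HIGH replicate 3, and the median was then -0.21. The higher ones were AIFM1, which carries out caspase-independent death, and PARP1, a DNA repair enzyme cleaved by caspases.

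Genes of DNA replication included 0 of 32 higher and 6 lower at an unadjusted p under 0.05, with a median of -0.20. Of all genes with a symbol, 8.46% were higher and 5.96% lower. RRM2, which supplies deoxynucleotides, stood at 13.8, 14.2 and 14.6 FPKM in LOW and at 8.83, 9.39 and 12.9 FPKM in HIGH. MCM6 and MCM3, subunits of the replicative helicase, were lower by -0.31 and -0.33 on the log2 scale, and PCNA, ORC6 and TK1 were the other 3. For PCNA the groups overlapped, with 44.8 to 48.5 FPKM in LOW and 27.8, 30.3 and 46.7 FPKM in HIGH. For the replication list, 0 were higher and 7 lower at an adjusted p under 0.05 without HIGH replicate 3, with a median of -0.32. Mitosis genes had a median of -0.18, and 2 of 32 were higher and 0 lower at an unadjusted p under 0.05. Without HIGH replicate 3, 1 was higher and 8 were lower at an adjusted p under 0.05, and the median was -0.36. CDC25B, a phosphatase that starts mitosis, stood at 8.22 to 9.68 FPKM in LOW and 11.9 to 17.7 FPKM in HIGH, and FOXM1 had 0.347 to 0.450 and 0.594 to 0.799 FPKM. By sample the median of the mitosis list was -0.35 and -0.34 in HIGH replicates 1 and 2, and 0.19 in HIGH replicate 3.

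**Figure D4:**
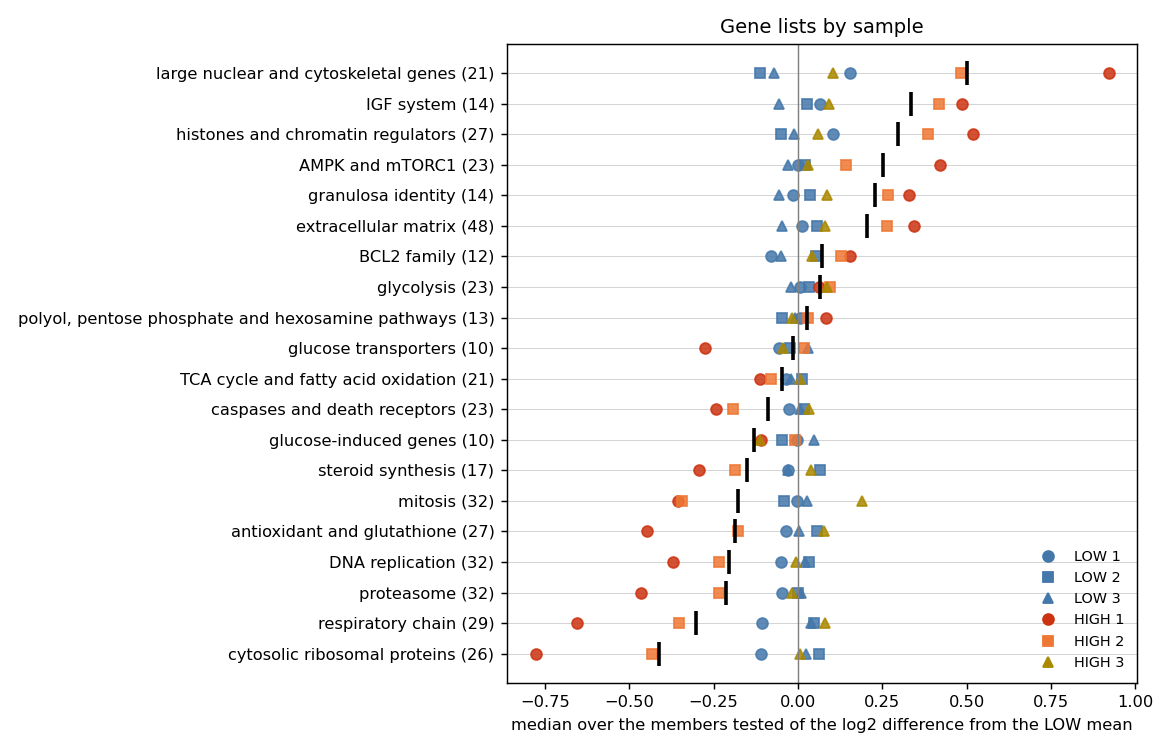
For 20 gene lists (members tested in parentheses), the median over members of the log2 difference from the LOW mean in each sample (blue LOW, red, orange and ochre HIGH) and the list's median fold change on the log2 scale with all 6 samples (black bar). HIGH replicate 1 lies furthest out at both ends, at 0.92 for large genes and -0.78 for ribosomal proteins.

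Over all 43 lists, the median of HIGH replicate 3 lay within the range of the LOW samples in 18 lists, that of HIGH replicate 2 in 9 and that of HIGH replicate 1 in 3.

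Ovarian functions came next. In steroid synthesis 1 of 17 genes was higher and 1 lower (8.46% and 5.96% of all genes with a symbol). The list median was -0.15. STAR, which carries cholesterol into mitochondria and limits the rate of steroid synthesis, stood at 6.00, 6.91 and 6.11 FPKM in LOW and at 4.50, 5.53 and 3.76 FPKM in HIGH. Its groups did not overlap, HIGH replicate 3 was the lowest sample, and the log2 fold change was -0.47 (SE 0.16, unadjusted p = 0.0206). SCARB1, the receptor for HDL cholesterol, was higher at 17.5 to 18.7 and 19.5 to 23.9 FPKM. 1 gene of steroid synthesis was higher and 3 were lower at an adjusted p under 0.05 without HIGH replicate 3, and the median was -0.25. In the granulosa identity list 5 of 14 were higher and 1 lower (8.46% and 5.96% of all genes with a symbol). The list median was 0.23. The 5 were GATA4, GATA6, ESR1 and the receptors IGF1R and INSR, which the IGF system list also holds. In GATA6, IGF1R and INSR the groups overlapped. Of 8 granulosa markers tested, 1 was higher and 1 lower, with a median of 0.04. GATA4, a granulosa transcription factor, stood at 3.96, 4.61 and 4.19 FPKM in LOW and at 9.49, 7.05 and 5.05 FPKM in HIGH, and ESR1 stood at 2.64 to 2.92 and 3.24 to 4.66 FPKM. INHA was the lower one at 11.8, 14.3 and 14.3 FPKM in LOW and 8.31, 10.7 and 10.0 FPKM in HIGH. FSHR had a log2 fold change of 0.25 (95% interval -0.51 to 1.02) at its low level. HAS2, the hyaluronan synthase that expands the cumulus before ovulation, was lower at 0.725 to 0.942 FPKM in LOW and 0.370 to 0.507 FPKM in HIGH. 3 genes of granulosa identity were higher and 0 lower at an adjusted p under 0.05 without HIGH replicate 3, and the median was 0.28.

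The other 14 lists had medians from -0.21 to 0.12, and from -0.26 to 0.19 without HIGH replicate 3. Of their 294 list places, 21 were higher and 25 lower at an unadjusted p under 0.05, beside 8.46% and 5.96% of all genes with a symbol. Some members are given here. ERN1, the sensor IRE1 of the unfolded protein response, stood at 1.79, 1.84 and 1.64 FPKM in LOW and at 4.01, 3.25 and 2.88 FPKM in HIGH (log2 fold change 0.90, SE 0.16, unadjusted p = 0.000754). CTSL, a lysosomal protease, stood at 5.33 to 6.12 FPKM in LOW and 3.42 to 4.45 FPKM in HIGH. RELA, a subunit of NF-kappa B, stood at 2.88 to 3.66 and 4.37 to 7.76 FPKM. JUN was lower at 26.9 to 30.9 and 22.6 to 24.5 FPKM. HSPA8 and HSPD1, chaperones of the cytosol and of mitochondria, were lower by -0.40 and -0.27 on the log2 scale, and BAG3, a cochaperone, was higher by 0.83. Of the osmotic response list, the taurine carrier SLC6A6 and the inositol carrier SLC5A3 were both higher by 0.38. They were the 2 of 8 tested that were higher at an unadjusted p under 0.05, and 0 were lower. In that list 3 genes were higher and 2 lower without overlap (10.8% and 11.2% of all genes with a symbol), and the median was 0.09. The samples include no control for osmotic strength, and its part was not tested.

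Single transcripts were tested in the same way and with the same thresholds. Of 36260 transcripts tested, limma called 26 (0.0717%), 11 higher (0.0303%) and 15 lower (0.0414%) in HIGH. Of 20151 transcripts of genes with a symbol, 10 were called (0.0496%), 6 higher (0.0298%) and 4 lower (0.0199%), and they belonged to 8 genes. For 7 of them one group was listed at 0 in all its samples, which in a table of estimated levels can be a failed assignment of reads between similar transcripts. Without HIGH replicate 3, 11 of the transcripts with a symbol were called, but these held only 5 of the 10, and the other 5 had an adjusted p of 0.0505 to 0.0657. Over the 6 fits that each leave out 1 sample, 3 of the 10 were called in all 6, 3 in some and 4 in none.

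NUDT16, a hydrolase that removes RNA caps, held calls in both directions. Its transcript TCONS_00029422 fell from 5.50, 5.59 and 4.29 FPKM in LOW to 0.0277, 0 and 0.0566 FPKM in HIGH (limma adjusted p = 0.00509). TCONS_00029419 was listed at 0 in all LOW samples and rose to 2.77, 3.82 and 5.14 FPKM in HIGH (limma adjusted p = 0.00620). These transcripts span 3338 and 3317 bases of the same locus. The gene total was 5.73 to 6.26 FPKM in LOW and 3.10, 3.99 and 5.86 FPKM in HIGH. HIGH replicate 3 stood with the other HIGH samples in both transcripts, but their choice by p and no overlap between groups selects for this. With 1 sample left out in turn, TCONS_00029422 was called in 6 of 6 fits and TCONS_00029419 in 5.

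TEAD4, a transcription factor that acts with YAP1, also held calls in both directions, but less firmly. TCONS_00218610 fell from 0.928, 1.33 and 0.821 FPKM in LOW to a listed 0 in HIGH, and TCONS_00218614 rose from a listed 0 in LOW to 1.03, 0.940 and 0.700 FPKM in HIGH (limma adjusted p = 0.0288 and 0.0305). Neither was called in any of the 6 fits with 1 sample left out, and without HIGH replicate 3 their adjusted p was 0.0657 and 0.0610. Its annotated transcript TEAD4-201 had 0.549, 0.745 and 0.589 FPKM in LOW and 1.80, 2.46 and 2.24 FPKM in HIGH (adjusted p = 0.133), and the gene total was 1.99, 2.11 and 1.42 against 3.26, 3.39 and 2.94 FPKM.

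ATL3, an atlastin that shapes the endoplasmic reticulum, had a call in a transcript with a level above 0 in all samples. ATL3-202 rose from 0.904, 0.730 and 1.35 FPKM in LOW to 8.09, 8.14 and 6.57 FPKM in HIGH, a log2 fold change of 2.85 (SE 0.23, limma adjusted p = 0.0212). It was called in 1 of the 6 fits with 1 sample left out, and without HIGH replicate 3 its adjusted p was 0.0534. The main transcript ATL3-201 carried 69.7 to 78.2 FPKM in LOW and 56.5 to 66.9 FPKM in HIGH. The other called transcripts belonged to TMEM18, ATP5F1E, BEND7, TUT4 and ZCCHC3. TCONS_00135225 of TMEM18 fell from 2.22 to 3.41 FPKM in LOW to at most 0.00434 FPKM in HIGH. TCONS_00062852 of ATP5F1E, a subunit of ATP synthase, rose from a listed 0 to 12.2, 4.78 and 9.62 FPKM. BEND7-201 rose from a listed 0 to 1.58 to 2.11 FPKM and TCONS_00016178 of TUT4, an RNA uridylyltransferase, from a listed 0 to 0.990 to 1.33 FPKM. ZCCHC3-201 fell from 1.11 to 1.45 FPKM to a listed 0. With 1 sample left out in turn, the transcripts of TMEM18 and ATP5F1E were called in 6 of 6 fits and that of BEND7 in 4. Those of TUT4 and ZCCHC3 were called in none (adjusted p of 0.0513 and 0.0505 without HIGH replicate 3). The gene totals of ATL3, TMEM18, ATP5F1E, BEND7 and TUT4 overlapped between groups (log2 fold changes of -0.13, -0.09, -0.17, 0.15 and 0.07). The gene total of ZCCHC3 was lower without overlap (-0.64).

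Among transcripts short of the threshold, GANAB stood out because its gene total was also among the firmest. GANAB encodes the catalytic subunit of glucosidase II, which trims glucose from new glycoproteins. Its gene level was 27.9, 26.0 and 29.5 FPKM in LOW and 53.6, 50.3 and 45.7 FPKM in HIGH, a log2 fold change of 0.84 (SE 0.11, unadjusted p = 6.22e-05, limma adjusted p = 0.176). GANAB-202 had 5.53, 5.50 and 16.7 FPKM in LOW and 48.6, 45.1 and 40.9 FPKM in HIGH, while GANAB-201 had 22.6, 20.04 and 12.7 FPKM and 5.69, 5.34 and 4.74 FPKM. TTC33 gave a like picture at a lower level, with TCONS_00091597 at 0.985 to 1.369 FPKM in LOW and 0.0967 to 0.193 FPKM in HIGH, and TTC33-201 at 0.149 to 0.248 and 1.30 to 1.62 FPKM. In GANAB and TTC33 HIGH replicate 3 stood with the other HIGH samples, but the choice of transcripts without overlap between groups selects for this.

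**Figure D5:**
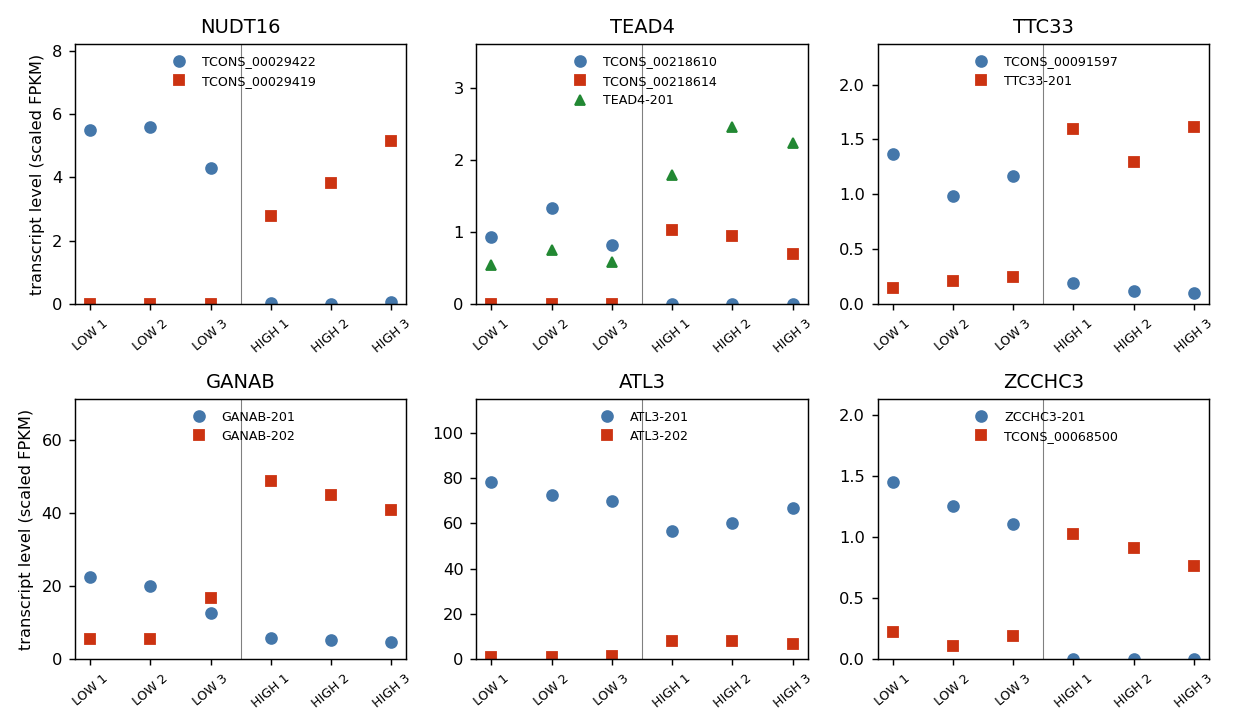
Scaled FPKM of transcripts of 6 genes in each sample (x axis, LOW left and HIGH right of the grey line, the order within a group has no meaning). NUDT16, TEAD4, TTC33 and GANAB each hold a transcript that is high in LOW and one that is high in HIGH, and ATL3-202 stands at 6.57 to 8.14 in HIGH below the main transcript of its gene.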

How the data were processed

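Per the labels, total RNA of cultured granulosa cells was sequenced. The authors' methods give depletion of ribosomal RNA, paired reads, alignment with HISAT2, assembly with StringTie and counting with HTSeq 0.6.0. The submitters' notes name TopHat, TopHat2, HISAT2 and STAR 2.5.1b as well as HTSeq 0.6.0. Which aligner the tables rest on is not clear from them. The genome build is not given in the sources used here, and no stranded counting is stated, so a gene and its antisense partner cannot be told apart. The deposited gene and transcript tables hold FPKM. In the transcript table, rows of Ensembl genes without a symbol hold TPM-like values, which were brought back to FPKM. The deposited count tables were used only as a check and are recorded as a score: for genes with 1 transcript they equal FPKM times genomic span times 1 factor per sample within 2% (100% of 8812 to 10498 genes), so no count test was run. If that factor is the denominator of FPKM, the samples held 48.0 to 65.0 M fragments. The paper lists the raw and clean reads of each sample, which were not used here. A gene's FPKM is the sum over its transcripts.

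Samples were scaled on the median of genes with at least 1 FPKM in all 6 samples (factors 0.955 to 1.07). Genes needed 0.1 FPKM in 3 of the 6 samples and a span of 300 bases, which left 23002 genes and 36260 transcripts. limma 3.58.1 (R 4.3.3) was fitted with a variance trend on log2(FPKM + 0.1), so fold changes of low genes are understated, with Benjamini-Hochberg adjustment over all genes or transcripts tested. A call needed an adjusted p under 0.05 and a log2 fold change above 1 or below -1, the thresholds of the authors. Single values per sample were compared with an exact permutation test. The script was tested on simulated data. Named genes were up to 12 per direction by p among genes with a log2 fold change past 1, no overlap and 1 FPKM in a group; 12 genes of interest; the 2 members with the smallest p of each of 34 pathway lists and 9 marker lists and any member at an unadjusted p under 0.05; 8 transcripts per direction; and the 10 most abundant genes. The report gives a selection of these. The members, lists and rules were chosen with earlier results of these data known. Percentages beside counts are shares of all genes or transcripts tested. Samples without glucose were not used. Columns without a sample numbered 0. Some genes that the rule names are not reported here. No sequences are shown, and the alternatives tried are given in the closing section.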

Additional observations from a re-analysis of the deposited data

How the results depend on the processing

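With all 6 samples the fit called 6 genes, none with a symbol, and 26 transcripts, 10 with a symbol. Leaving out 1 sample in turn gave 3 to 869 genes, 0 to 257 with a symbol, and 13 to 28 transcripts, 6 to 15 with a symbol; the highest gene counts came without HIGH replicate 3 and the lowest without LOW replicate 1. The 915 higher and 645 lower genes with a symbol at an unadjusted p under 0.05 ranged from 410 to 1912 and from 188 to 2254 over the same fits. Without LOW replicate 3 the calls with a symbol were CDC42SE2 and SEC61A1, for which that sample stood with HIGH (49.7 FPKM of SEC61A1 against 18.4 and 20.1 in the other LOW samples), and with no variance trend the call was RNF122, listed at 0 in HIGH (named after their values were seen).

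With no variance trend there were 11 gene calls, 1 with a symbol, 331 lower genes with a symbol at an unadjusted p under 0.05, and 59 transcript calls, 24 with a symbol. A minimum of 1 FPKM left 6 transcript calls, 3 with a symbol, and no filter left 12 and 5. Without scaling the lower genes numbered 350, the higher share of genes at an unadjusted p under 0.05 was 75.7% against 58.7%, and the median of all genes was 0.11; with upper quartile scaling these were 71.8% and 0.10. The replicate block gave 3 gene calls, 2 transcript calls and 0 with a symbol. The deviations of same-numbered samples from their group means correlated at 0.24, -0.03 and 0.07. Whether same-numbered samples shared a cell pool or day was not tested.

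The glycolysis median of 0.07 became 0.083 at 1 FPKM, 0.13 without scaling and 0.13 with the upper quartile, and 0.045 to 0.10 with samples left out. Without scaling and with the upper quartile, the median became 0.092 and 0.086 for the pentose phosphate, polyol and hexosamine list, 0.14 and 0.13 for the BCL2 family, and without scaling 0.019 for the TCA list. Samples left out gave -0.18 to -0.055 for the glucose-induced list and 0.024 to 0.14 for the BCL2 family. Gene levels rebuilt without antisense and overlapping transcripts, an alternative chosen after seeing the data, gave 6 calls, none with a symbol. edgeR and DESeq2 were planned for counted reads only and not run. The cause of these differences was not tested. Depth limits genes under 1 FPKM most.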

Other observations

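The 6 genes called with all 6 samples have no symbol. ENSOARG00000008115 (chromosome 21, 49743059 to 49748737) was listed at 0 in all LOW samples and rose to 28.7, 28.4 and 36.4 FPKM in HIGH (limma adjusted p = 1.99e-06), and it was called whichever sample was left out. ENSOARG00000012662 on chromosome 16 fell from at least 1.998 FPKM in each LOW sample to a listed 0 in HIGH (adjusted p = 0.00151) and was also called in all 6 such fits. The other 4 were assembled by the authors and fell from between 0.633 and 3.89 FPKM in LOW to at most 0.137 FPKM in HIGH. HIGH replicate 3 stood with the other HIGH samples in all 6, but a call with all 6 samples selects for this.

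The median log2 fold change of assembled genes was 0.26, against -0.03 for genes with a symbol and -0.10 for the 2832 Ensembl genes without one, and 0.35 without HIGH replicate 3. Among 8 immune markers, 0 were higher and 3 lower at an unadjusted p under 0.05 (8.46% and 5.96% of all genes with a symbol). Of the 8 tested, 4 had a log2 fold change above 0. AIF1 was 1 of the 3, at 0.662, 1.15 and 0.731 FPKM in LOW and 0.248, 0.226 and 0.0924 FPKM in HIGH, with 28.4% of its level in antisense or overlapping transcripts. KRT8, a keratin of the epithelial list, had 10.8 to 14.0 FPKM in LOW and 5.38, 6.54 and 10.5 FPKM in HIGH. Of 3 epithelial markers tested, KRT8 and CDH1 were lower without overlap. UPK3B was higher without overlap, at 0.0976 to 0.243 FPKM in LOW and 0.293 to 0.401 FPKM in HIGH.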
